A study of Mus musculus with 4 samples.

Results

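The genes described here are 33 genes of cochlear neurons, which encode neurofilaments and other cytoskeletal proteins, proteins of the synaptic vesicle and its release, voltage-gated channels, AMPA receptor subunits and neuronal regulators. They were picked by role, with earlier results of these data known, and taken from the arrays by gene symbol. The symbols named 52 probes, and for each gene the brightest probe that was well above background on at least 1 array was used. They made up 33 of the 21942 genes that had such a probe. Of the 33 genes, 32 were well above background on all 4 arrays, and for 24 the mean signal over the arrays lay above the 75th percentile to which each array was scaled. The exception was *Gria2*, an AMPA receptor subunit, which was well above background only in OHC-TRECK DT(-), with log2 values of -6.10 in WT DT(-), -6.47 in WT DT(+), -6.07 in OHC-TRECK DT(-) and -7.53 in OHC-TRECK DT(+), so it was given no ratio in any comparison.

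The study asked what happens in the cochlea once outer hair cells (OHCs) are removed. OHC-TRECK mice carry the *Prestin-hDTR* transgene, in which the promoter of prestin, the OHC motor protein gene *Slc26a5*, drives a modified human HB-EGF as a receptor for diphtheria toxin (DT). Total cochlear RNA went, after Cy3 labelling, onto 1 Agilent array per group, and the 4 arrays shared 1 slide. The groups were WT DT(-), untreated wild-type mice; WT DT(+), wild-type mice given 50 μg/kg of DT 7 days before dissection; OHC-TRECK DT(-), untreated transgenic mice; and OHC-TRECK DT(+), transgenic mice given the same dose at the same time. All mice were B6J and 5 weeks old, each group pooled 4 females and 4 males, and the transgenic mice came from 1 line, so any effect of that line's integration site is shared by both OHC-TRECK groups. With 1 array per group there is no replicate error, no test across arrays was possible, and array and group cannot be told apart. Each comparison below therefore describes a pair of arrays.

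The neurons of the cochlea lie in the spiral ganglion. Type I neurons contact inner hair cells and carry most sound information to the brain, while the less numerous type II neurons contact OHCs. Their axons are filled with neurofilaments built from light, medium and heavy chains together with alpha-internexin or peripherin. Action potentials in these fibres depend on sodium channels at the nodes and on potassium channels of the Kv1 and Kv3 families, the latter allowing rapid repetitive firing. Vesicle fusion at nerve endings depends on SNARE proteins, on synaptotagmins as calcium sensors and on complexins. Several of the genes, among them *Snap25*, *Stx1a*, *Cplx1*, *Gata3*, *Isl1* and *Thy1*, are also known from hair cells, supporting cells or other cochlear cells, and the peripheral endings of efferent axons run in the same tissue.

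Values are log2 of the intensity divided by the 75th percentile of the array, and a ratio is a difference of such values. A value compares arrays for the same probe and is not a level that can be set against another gene. Repeat spots of a probe gave the only measure of technical error, with a median SD on the log2 scale of 0.0713 in WT DT(-), 0.0607 in WT DT(+), 0.0636 in OHC-TRECK DT(-) and 0.0710 in OHC-TRECK DT(+). Loss of OHCs was visible in the marker genes. *Strc*, the stereocilin gene, had log2 values of -2.03, -1.87 and -1.83 in WT DT(-), WT DT(+) and OHC-TRECK DT(-) and of -4.93 in OHC-TRECK DT(+). *Chrna9*, a subunit of the acetylcholine receptor of OHCs, was 6.83-fold lower with DT in OHC-TRECK mice and 1.27-fold higher with DT in wild-type mice. *Slc26a5* was not well above background in OHC-TRECK DT(+) and was at least 1.31-fold lower there than in OHC-TRECK DT(-). Of the genes that mark spiral ganglion neurons or their subtypes, 17 of 18 had a probe well above background on at least 1 array, *Pou4f1*, *Prox1* and *Ntrk3* included, and *Neurod1* had none.

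In wild-type mice, DT alone went with slightly lower signal of nearly all of the neuronal genes. Of the 32 with a ratio, 29 were lower in WT DT(+) than in WT DT(-), against 60.2% of all 20172 genes compared. The median log2 ratio was -0.17, or 1.12-fold lower, against -0.04 for all genes and -0.04 for the 8451 genes whose mean signal was above the 75th percentile. The shift was shared by many genes and small in each: 1 gene, *Prph*, was lower by 1.5-fold or more, against 2.91% of all genes, and 0 were higher by 1.5-fold or more, against 3.12%. Summed over the 33 probes, a sum that the brightest probes dominate, the normalized signal was 333 in WT DT(-), 287 in WT DT(+), 312 in OHC-TRECK DT(-) and 274 in OHC-TRECK DT(+). It was thus 13.8% lower with DT in wild-type mice and 12.1% lower with DT in OHC-TRECK mice. In RNA of a whole tissue, fewer neurons and less RNA per neuron cannot be told apart.

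In OHC-TRECK mice, 23 of the 32 genes were lower with DT, against 52.6% of all 20006 genes, with a median log2 ratio of -0.22 or 1.17-fold, against -0.01 for all genes. *Kcnc1* was the only member lower by 1.5-fold or more, against 4.01% of all genes, and *Prph* the only one higher by that much, against 5.47%. The toxin ratios of the 2 genotypes share no array. Both were negative for 20 of the 32 genes (62.5%), against 34.3% of the 19313 genes with both ratios. A further 9 members (28.1%) were lower with DT only in wild-type mice, near the 25.4% of all genes. Only in OHC-TRECK mice this held for 3 (*Scn1a*, *Scn8a* and *Slc17a7*), against 18.3% of all genes, and 0 were lower in neither, against 22.0%. For *Scn1a* and *Scn8a* this rested on the probe used, since a dimmer probe was lower with DT in wild-type mice too (-0.40 and -0.10). The sizes of the 2 ratios went together little across the genes (Pearson's r = -0.27 and Spearman's rho = 0.11 over 32 genes; 0.16 and 0.22 without *Prph*), as across all genes (0.12 and 0.18). These are correlations across genes that share 4 arrays, and genes are not independent replicates.

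**Figure D1:**
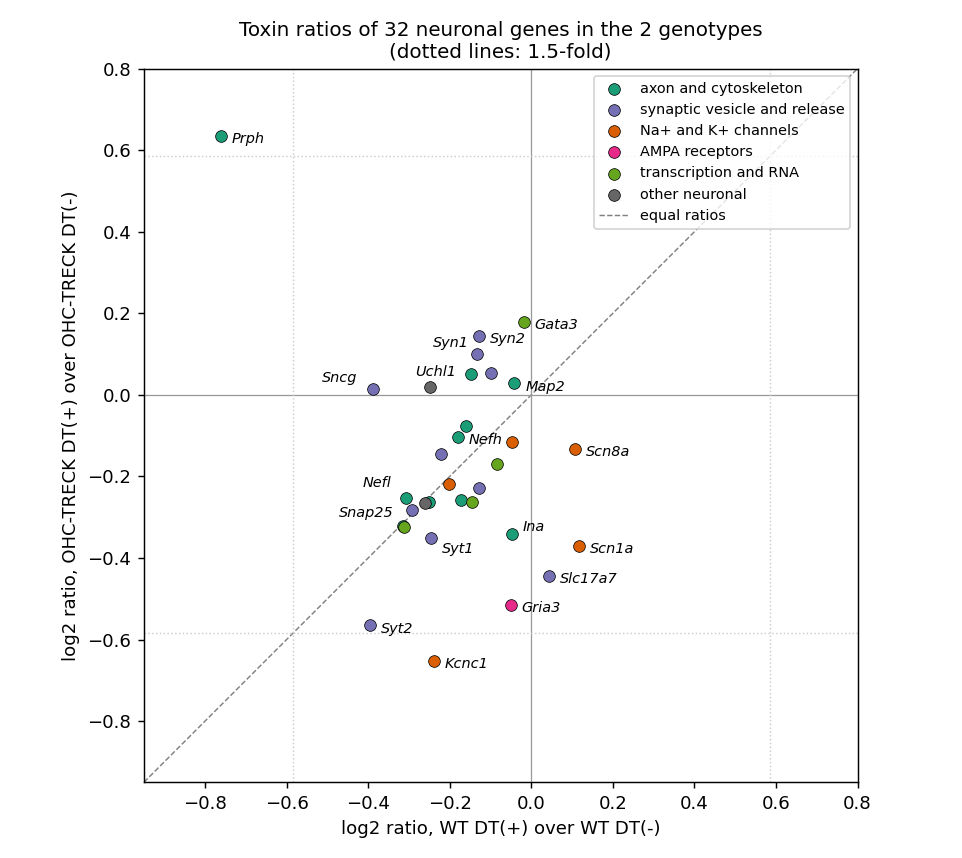
Log2 ratio of DT(+) over DT(-) in wild-type mice (x axis) and in OHC-TRECK mice (y axis) for the 32 neuronal genes with a ratio, coloured by role, from 1 array per group. Both ratios are below 0 for 20 genes; *Prph* lies alone at upper left, and *Scn1a*, *Scn8a* and *Slc17a7* at lower right.

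The question of a further fall beyond that seen with the toxin in wild-type mice was addressed by 2 values per gene, OHC-TRECK DT(+) over WT DT(+) and the toxin ratio of OHC-TRECK mice minus that of wild-type mice. Among the toxin-treated groups, 20 of 32 genes were lower in OHC-TRECK DT(+), against 48.0% of all 19513 genes, and the median log2 ratio was -0.06, or 1.05-fold, against 0.01 for all genes. In this comparison *Syt1* was lower by 1.5-fold or more, against 4.62% of all genes, and *Prph* higher, against 4.12%. The median over the members of the toxin ratio in OHC-TRECK minus that in wild type was -0.01, with a range from -0.49 to 1.40, against a median of 0.02 for all genes. This difference was negative for 18 members and positive for 14, and negative for 46.2% of all 19313 genes. Among the untreated groups, 23 of 32 members were lower in OHC-TRECK DT(-) than in WT DT(-), against 53.6% of 21118 genes, with a median of -0.08, and 0 reached 1.5-fold lower or higher, against 4.76% and 2.42% of all genes. For the set as a whole, the lower signal with toxin was thus present in wild-type mice at a median of -0.17, and the step from WT DT(+) to OHC-TRECK DT(+) was smaller. This order depended on the processing, since after quantile normalization the medians were -0.12 and -0.16, and with the mean of all probes of a gene the steps were nearly equal (-0.15 and -0.13). The cause of neither step was tested.

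From WT DT(-) to OHC-TRECK DT(+), 27 of 32 genes were lower, against 55.3% of 20227 genes, at a median of -0.26 or 1.19-fold. *Kcnc1*, *Syt1* and *Syt2* were lower by 1.5-fold or more, against 6.11% of all genes, and 0 members were higher, against 4.77%. No member reached 2-fold in either direction in WT DT(+) over WT DT(-), OHC-TRECK DT(+) over OHC-TRECK DT(-) or OHC-TRECK DT(+) over WT DT(+), where 2.72%, 4.42% and 3.47% of all genes did. Of the 4 arrays, WT DT(-) gave the highest signal for 21 of the 32 members and OHC-TRECK DT(+) the lowest for 20, and for 15 members both held. For all 18248 genes well above background on all 4 arrays, these arrays were the highest for 31.7% and the lowest for 35.0%. WT DT(+) was the highest array for 0 members, against 15.8% of all genes.

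**Figure D2:**
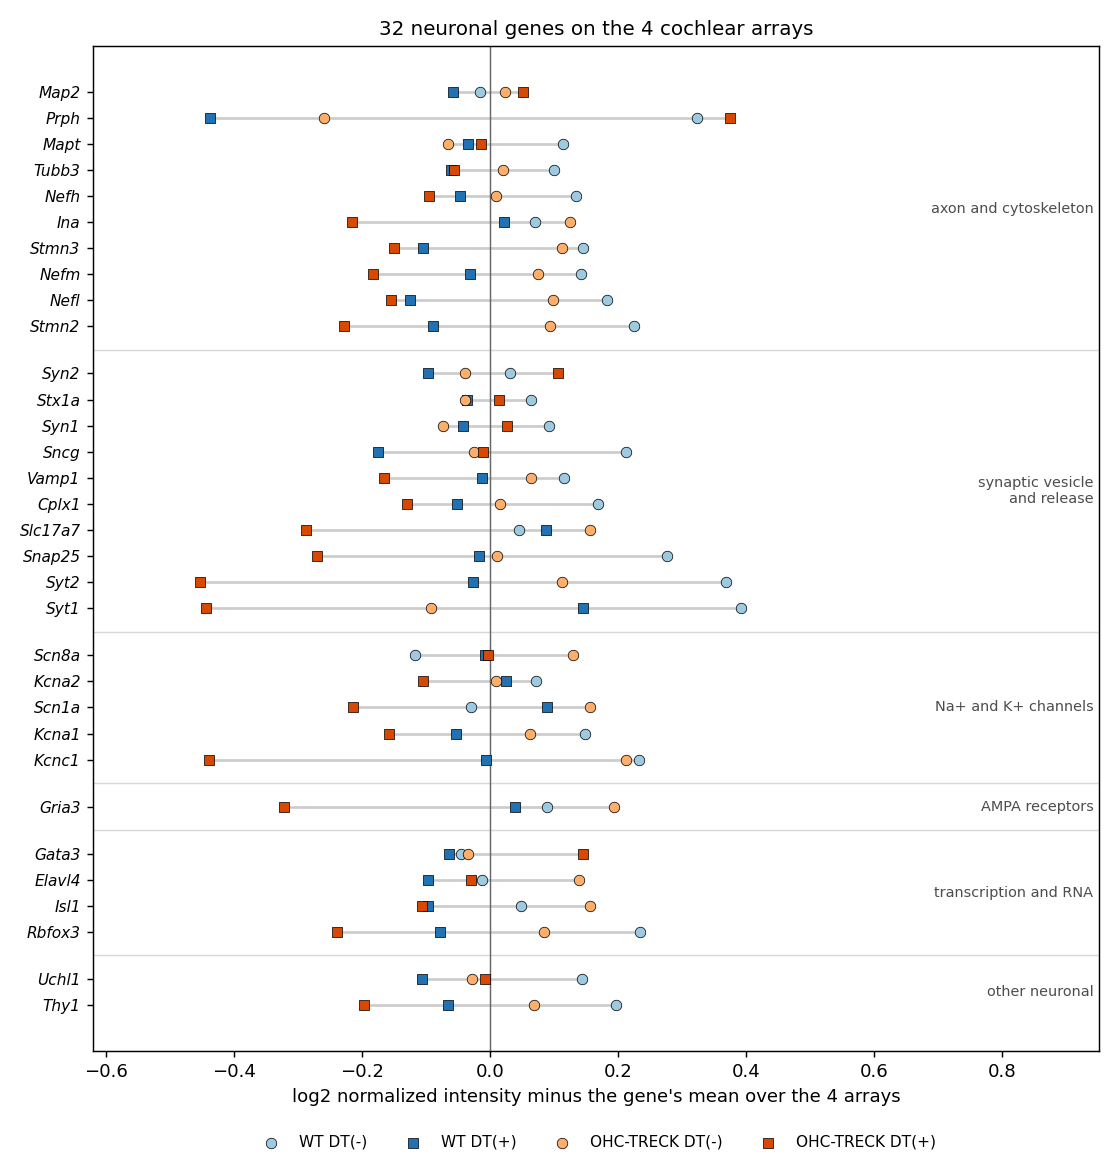
Log2 normalized intensity of each of the 32 genes on each array minus that gene's mean over the 4 arrays (x axis), with 1 row per gene grouped by role; circles are untreated and squares toxin-treated groups, and the grey line is the range over the 4 arrays. WT DT(-) lies furthest right for 21 genes and OHC-TRECK DT(+) furthest left for 20, while *Prph* runs the other way in OHC-TRECK mice.

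Of the 10 genes of the axon and its cytoskeleton, all 10 were lower in WT DT(+) by the probe used, against 60.2% of all genes, and 7 were lower with DT in OHC-TRECK mice, against 52.6%. The wild-type ratios of *Map2* (-0.04) and *Ina* (-0.05) were smaller than the median SD of repeat spots. The medians were -0.18 in both genotypes, but single genes differed, with toxin ratios in OHC-TRECK minus wild-type mice from -0.29 for *Ina* to 1.40 for *Prph*. *Nefl*, the neurofilament light chain, measured 5.73, 5.42, 5.64 and 5.39 (log2) in WT DT(-), WT DT(+), OHC-TRECK DT(-) and OHC-TRECK DT(+). Both toxin-treated arrays lay below both untreated ones, and the toxin-treated arrays differed by 0.03 only. *Nefm*, the medium chain, measured 3.84, 3.67, 3.77 and 3.52 in the same order. It was spotted 10 times per array, and spots of toxin-treated and untreated mice did not overlap within a genotype: the lowest spot was 3.73 in WT DT(-) and the highest 3.71 in WT DT(+), and the lowest was 3.70 in OHC-TRECK DT(-) and the highest 3.55 in OHC-TRECK DT(+). These spots share 1 RNA pool, so their SDs of 0.0300 to 0.0531 cover the error of spotting and hybridisation only. How often spots did not overlap over all repeated probes was not counted. For *Isl1*, also spotted 10 times, the wild-type spots overlapped. *Nefh*, the heavy chain, measured 5.86, 5.68, 5.73 and 5.63.

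*Stmn2* and *Stmn3*, which regulate microtubules in growing and mature axons, had toxin ratios of -0.31 and -0.25 in wild-type mice and of -0.32 and -0.26 in OHC-TRECK mice. *Ina*, the alpha-internexin gene, differed between the genotypes by the probe used: its toxin ratio was -0.05 in wild-type mice and -0.34 in OHC-TRECK mice, and OHC-TRECK DT(+) alone was low, at 2.48 against 2.71 to 2.82 on the other arrays. Its second, dimmer probe gave -0.16 and -0.24, values closer to each other. *Tubb3*, a neuronal beta-tubulin, was among the 3 members with the smallest range, with values of 2.84, 2.68, 2.76 and 2.69. *Map2*, a microtubule-associated protein of dendrites, stayed within 0.11 over the 4 arrays, at 0.16, 0.12, 0.20 and 0.23. *Mapt*, which encodes tau, had toxin ratios of -0.15 in wild-type and 0.05 in OHC-TRECK mice. The ratios of both *Map2* and *Mapt* in OHC-TRECK mice were near 0 and took opposite signs among their 3 probes each. In wild-type mice the toxin ratio of *Map2* was -0.04 by the probe used, but 0.05 and 0.35 by its other probes.

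*Prph* was the exception of the whole set. It encodes peripherin, an intermediate filament protein of peripheral neurons that in the adult spiral ganglion is known as a marker of type II neurons. Its log2 values were -2.24 in WT DT(-), -3.00 in WT DT(+), -2.82 in OHC-TRECK DT(-) and -2.19 in OHC-TRECK DT(+). With DT it was 1.69-fold lower in wild-type mice and 1.55-fold higher in OHC-TRECK mice, and the toxin-treated groups differed by 1.76-fold. OHC-TRECK DT(+) was level with WT DT(-), from which it differed by 0.05, and the untreated OHC-TRECK array lay 0.58 below the untreated wild-type array on the log2 scale. With normexp background correction the ratio in OHC-TRECK mice was 0.56 in place of 0.63, just short of 1.5-fold. A single probe measured this gene, at chr15:98889042-98889101 on the plus strand (mm9, from the array files). The start of that probe and the promoter of the gene are shown because no other member had toxin ratios of opposite direction at 1.5-fold each. The probe is 60 bases long, and its first 30 bases read as follows.
Prph probe: acagagtcccagaaggaacagcacagtgac
The 250 bases before the start site of *Prph*, from the RefSeq promoter table (GRCm38.p6, chr15:99054924-99055173, plus strand), hold a TATAAA 31 bases before the start site, in capitals.
Prph promoter: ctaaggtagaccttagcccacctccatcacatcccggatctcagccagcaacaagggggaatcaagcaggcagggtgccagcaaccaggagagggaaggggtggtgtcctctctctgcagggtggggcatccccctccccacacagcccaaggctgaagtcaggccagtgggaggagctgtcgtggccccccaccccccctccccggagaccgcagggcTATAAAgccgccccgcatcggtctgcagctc

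The promoter table held 31 promoters of 24 members, each reaching from 250 bases before to 50 bases after a start site. Searched on both strands, TATAAA lay in 1 of these promoters, that of *Prph*, against 13.6% of all 32851 promoters, and GGGCGG, the core of the Sp1 motif, in 16 of the 31 promoters, those of 15 genes, against 35.7% of all promoters. TGACGTCA, the cyclic AMP response element, lay in 1, that of *Syn1*, against 1.79%. A short form of RE1, the element bound by the neuronal repressor REST (CAGCACC, any 2 bases, GG, any base, CAG), was also found only in *Syn1* among the members, against 0.0578% of all promoters. That stretch is shown as the 1 such match in a neuronal gene of this set, in capitals in the 250 bases before the start site (GRCm38.p6, chrX:20920919-20921168, minus strand).
Syn1 promoter: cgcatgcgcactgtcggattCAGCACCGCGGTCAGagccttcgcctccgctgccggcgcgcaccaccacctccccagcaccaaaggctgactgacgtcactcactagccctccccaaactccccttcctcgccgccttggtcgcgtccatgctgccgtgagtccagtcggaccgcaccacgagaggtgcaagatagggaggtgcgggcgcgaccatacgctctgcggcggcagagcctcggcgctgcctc
The letters are a description, and no binding was measured. *Snap25*, *Kcna1*, *Gria3*, *Nefl*, *Mapt*, *Thy1*, *Stmn2*, *Nefm* and *Nefh* were not matched in this table.

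Of the 10 genes of the synaptic vesicle and its release, 9 were lower with DT in wild-type mice (median -0.18) and 6 in OHC-TRECK mice (median -0.19), and OHC-TRECK DT(+) was below WT DT(+) for 6 (median -0.12), against 60.2%, 52.6% and 48.0% of all genes. *Syt1* and *Syt2*, the calcium sensors of fast release, had the largest drop from WT DT(-) to OHC-TRECK DT(+) in the group. *Syt1* measured -0.87, -1.11, -1.35 and -1.70 (log2) in WT DT(-), WT DT(+), OHC-TRECK DT(-) and OHC-TRECK DT(+). Both OHC-TRECK arrays lay below both wild-type arrays, and each toxin-treated array lay below its own control. Its toxin ratios of -0.25 and -0.35 were close to each other, and the difference between genotypes was -0.48 without and -0.59 with toxin. The last value, 1.51-fold, lay just past the 1.5-fold limit and ran from -0.62 to -0.52 under other ways of processing. *Syt2* measured -2.27, -2.66, -2.52 and -3.09, with toxin ratios of -0.40 in wild-type mice and -0.57, or 1.48-fold, in OHC-TRECK mice, just short of that limit.

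*Snap25*, a SNARE protein of the presynaptic membrane, measured 4.10, 3.81, 3.84 and 3.55, so that the toxin ratio was nearly equal in the genotypes (-0.29 and -0.28). *Vamp1* and *Cplx1*, a vesicle SNARE and a complexin, had toxin ratios of -0.13 and -0.22 in wild-type mice and of -0.23 and -0.15 in OHC-TRECK mice. *Slc17a7*, the vesicular glutamate transporter VGLUT1, was not lower with DT in wild-type mice (0.04) and was 1.36-fold lower with DT in OHC-TRECK mice. Its 3 other arrays lay between -1.07 and -0.95 and OHC-TRECK DT(+) at -1.40. *Syn1* and *Syn2*, which tether vesicles, and *Sncg*, a synuclein, were lower with DT in wild-type mice by the probes used (-0.13, -0.13 and -0.39) and had ratios of 0.10, 0.14 and 0.01 in OHC-TRECK mice. The dimmer probe of *Syn2* gave 0.05 in wild-type mice and 0.25 in OHC-TRECK mice. *Stx1a*, the syntaxin partner of *Snap25*, had the smallest range of all members, at -4.19, -4.29, -4.29 and -4.24.

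Of the 5 voltage-gated channel genes, all 5 were lower with DT in OHC-TRECK mice (median -0.22), against 52.6% of all genes, and 3 in wild-type mice (median -0.05), against 60.2%. The toxin ratio in OHC-TRECK minus that in wild type was negative for 5 of 5, against 46.2% of all genes, at a median of -0.24. For *Kcna1* this difference was -0.02, smaller than the median SD of repeat spots, and for *Scn1a* it was negative by the brighter probe only, since the dimmer one had toxin ratios of -0.40 in wild-type and -0.35 in OHC-TRECK mice. *Kcnc1*, which encodes the Kv3.1 potassium channel of fast-firing neurons, measured 1.57, 1.33, 1.55 and 0.90 (log2) in WT DT(-), WT DT(+), OHC-TRECK DT(-) and OHC-TRECK DT(+). The untreated arrays differed by 0.02 only and OHC-TRECK DT(+) was the lowest, 0.43 below WT DT(+). With DT it was 1.18-fold lower in wild-type mice and 1.57-fold lower in OHC-TRECK mice, and OHC-TRECK DT(+) lay 1.35-fold below WT DT(+). *Scn1a*, a sodium channel alpha subunit, measured 1.16, 1.28, 1.34 and 0.97, with toxin ratios of 0.12 and -0.37. *Scn8a*, the sodium channel of the nodes of Ranvier, had toxin ratios of 0.11 and -0.13. *Kcna1* and *Kcna2*, the Kv1 channels beside the nodes, had ratios of -0.20 and -0.05 in wild-type mice and of -0.22 and -0.11 in OHC-TRECK mice. *Gria3*, the only AMPA receptor subunit of the set with a ratio, was also low in OHC-TRECK DT(+) alone: it measured -1.18, -1.23, -1.07 and -1.59, with toxin ratios of -0.05 and -0.52.

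*Kcnc1* was the member lowered most by DT in OHC-TRECK mice, and its 3 probes lie at separate places of the gene on the plus strand of chromosome 7 (mm9, from the array files). They are shown because the 3 gave the same direction in both genotypes. The probe used lies at chr7:53693712-53693771 and carries the RefSeq accession of a different transcript than the others, at chr7:53682767-53682826 and chr7:53688622-53688681. The first 30 of 60 bases of each are given in the order named.
Kcnc1 probe used: gagattcgagcatgaaataaattttgtaac
Kcnc1 second probe: tgtctggagactcacgagcgcttcaacccc
Kcnc1 remaining probe: gccttgccgtcttgtacgacagactttttt
Over the 3 probes the toxin ratio ran from -0.24 to -0.15 in wild-type mice and from -0.65 to -0.45 in OHC-TRECK mice, where their mean of -0.55 was short of 1.5-fold, and OHC-TRECK DT(+) over WT DT(+) from -0.47 to -0.35. The 250 bases before its start site (GRCm38.p6, chr7:46396218-46396467, plus strand) hold 3 GGGCGG motifs, 200, 175 and 132 bases before the start site, the first on the opposite strand. They are in capitals.
Kcnc1 promoter: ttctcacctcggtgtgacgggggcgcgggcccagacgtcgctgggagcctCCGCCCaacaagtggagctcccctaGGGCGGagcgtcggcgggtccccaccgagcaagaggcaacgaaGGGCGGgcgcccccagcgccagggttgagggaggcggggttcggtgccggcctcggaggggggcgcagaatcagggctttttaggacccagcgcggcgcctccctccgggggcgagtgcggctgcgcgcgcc

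For 12 members, more than 1 probe passed the background flag on every array, and probes of a gene did not always run the same way. Their signs differed for 5 genes in WT DT(+) over WT DT(-): *Elavl4*, *Map2*, *Scn1a*, *Scn8a* and *Syn2*. They differed for 2 genes in OHC-TRECK DT(+) over OHC-TRECK DT(-) and for 4 in OHC-TRECK DT(+) over WT DT(+). In wild-type mice, *Scn1a* had a ratio of 0.12 by its brighter and -0.40 by its dimmer probe, so its higher signal in WT DT(+) rested on the choice of probe. In OHC-TRECK mice both *Scn1a* probes were lower (-0.37 and -0.35), as were both probes of *Gria3* (-0.52 and -0.38) and of *Ina* (-0.34 and -0.24). By its brighter and dimmer probe, *Scn8a* had ratios of -0.13 and -0.79 in OHC-TRECK mice and of 0.11 and -0.10 in wild-type mice.

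**Figure D3:**
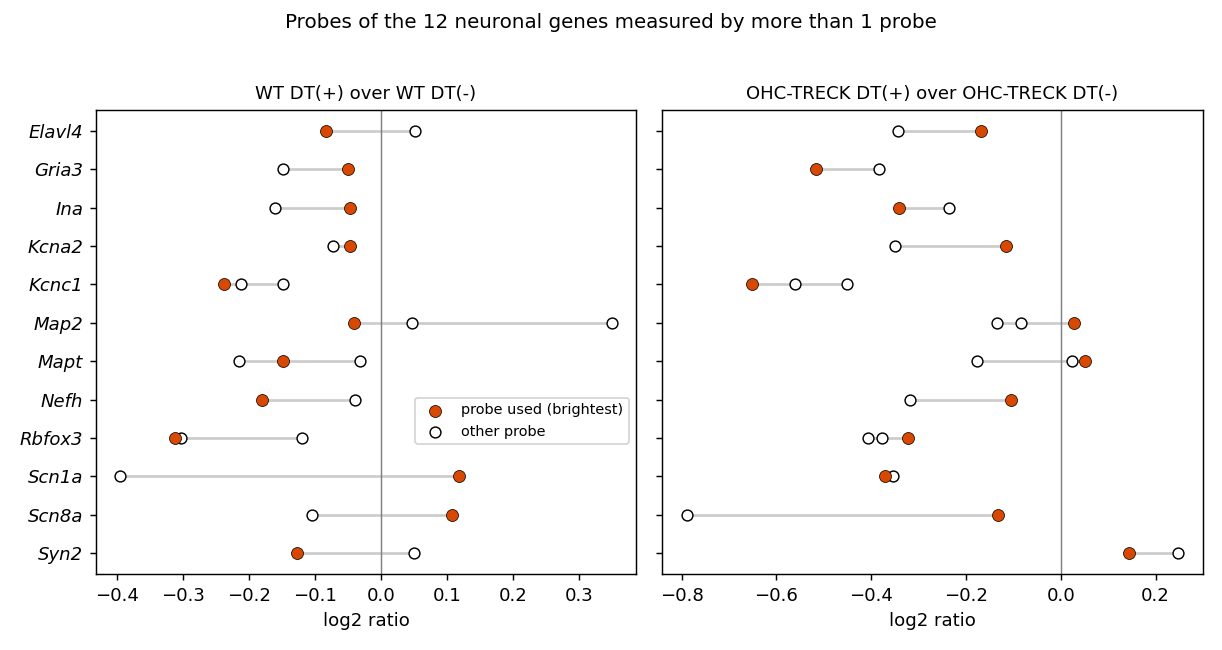
Log2 toxin ratio of each probe (x axis) of the 12 genes with more than 1 probe well above background on all 4 arrays, in wild-type mice (left) and OHC-TRECK mice (right); filled points are the brightest probe, used in the text, and open points the others. The probes of *Kcnc1*, *Gria3*, *Ina* and *Rbfox3* are below 0 in both panels. Those of *Elavl4*, *Map2*, *Scn1a*, *Scn8a* and *Syn2* lie on both sides of 0 in wild-type mice.

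Among the regulators, *Rbfox3*, which encodes the neuronal nuclear antigen NeuN, measured 1.30, 0.99, 1.15 and 0.83 (log2) in WT DT(-), WT DT(+), OHC-TRECK DT(-) and OHC-TRECK DT(+). Each toxin-treated array was below both untreated arrays, with ratios of -0.31 and -0.32. *Isl1*, a LIM-homeodomain factor of sensory neurons, measured 0.89, 0.74, 0.99 and 0.73. Its spots overlapped in wild-type mice, where the lowest was 0.81 in WT DT(-) and the highest 0.83 in WT DT(+). In OHC-TRECK mice they did not, with a lowest spot of 0.84 in OHC-TRECK DT(-) and a highest of 0.81 in OHC-TRECK DT(+). As for *Nefm*, the spots share 1 RNA pool, and how often spots of other repeated probes did not overlap was not counted. *Elavl4*, an RNA-binding protein of neurons, had toxin ratios of -0.08 and -0.17 by the probe used, and of 0.05 and -0.34 by its dimmer probe. *Gata3*, a transcription factor of spiral ganglion neurons and other cells of the inner ear, was not lower in OHC-TRECK DT(+): it measured 3.24, 3.22, 3.25 and 3.43, and its toxin ratios were -0.02 and 0.18. Of the remaining genes, *Thy1*, a surface protein of neurons, had toxin ratios of -0.26 and -0.27, and *Uchl1*, a neuronal ubiquitin hydrolase, of -0.25 and 0.02.

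Neuronal genes outside the set were also mostly lower. The 4 further lists, of genes of synapses, of channels and the axon membrane, of the cytoskeleton and transport, and of neurons in general, held 71 genes, of which 69 had a probe well above background on at least 1 array. With DT, 57 of 67 were lower in wild-type mice (median -0.17) and 55 of 68 in OHC-TRECK mice (median -0.23), and 54 of 65 were lower in OHC-TRECK DT(+) than in WT DT(+) (median -0.16), against the same shares of all genes, 60.2%, 52.6% and 48.0%. In these lists 2 genes were lower and 0 higher by 1.5-fold or more with DT in wild-type mice, and 3 were lower and 3 higher in OHC-TRECK mice. For all genes these shares were 2.91% and 3.12% in wild-type mice and 4.01% and 5.47% in OHC-TRECK mice, so the counts of lower genes were near the background. All 11 genes of the general list were lower in each of these comparisons, at medians of -0.24, -0.34 and -0.27. Lists of spiral ganglion subtype and identity genes were less uniform, with 12 of 17 lower in wild-type mice and 11 of 17 in OHC-TRECK mice. Without toxin, 57 of 68 genes of the 4 further lists were lower in OHC-TRECK DT(-) than in WT DT(-), against 53.6% of all genes. The median was -0.12, so a signal below that of WT DT(-) was also seen without toxin.

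Single genes of these lists moved further than any member. *Gap43*, a protein of growing axon tips, measured -2.64, -3.05, -3.01 and -1.42 (log2) in WT DT(-), WT DT(+), OHC-TRECK DT(-) and OHC-TRECK DT(+), a 3.01-fold higher signal with DT in OHC-TRECK mice and a log2 ratio of -0.42 in wild-type mice. *Syt4*, a synaptotagmin, measured -1.15, -0.95, -0.83 and 0.53, a 2.57-fold higher signal with DT in OHC-TRECK mice, and *Syn3* was 1.55-fold higher there. The lowest toxin ratios in OHC-TRECK mice were those of *Calb1*, the calbindin gene, at -1.05, of *Plk5* at -0.97 and of the sodium channel gene *Scn3a*, which was not well above background in OHC-TRECK DT(+) and was at least 1.82-fold lower. *Scn3a* was not well above background in WT DT(+) either, and was at least 1.55-fold lower with DT in wild-type mice. In wild-type mice, *Neurog1*, a factor of neuron formation, was not well above background with DT and was at least 3.37-fold lower, *Calb1* was 1.84-fold lower and *Sv2c*, a vesicle protein, 1.78-fold lower. *Neurog1* measured -3.73, -5.52, -5.42 and -5.74 in the order given for *Gap43*, so WT DT(-) alone was high. Untreated OHC-TRECK DT(-) already lay 3.23-fold below WT DT(-) for *Neurog1*, and 1.69-fold below it for *Calb1*. Among the highest toxin ratios in wild-type mice were 0.34 for *Map1b* and 0.20 for *Syt4*. *Calb1* is also known from hair cells, and its part in OHC loss was not tested.

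Genes of other cell types had ratios of either direction, depending on the list. Among 14 genes of Schwann cells and peripheral myelin, 13 were lower with DT in wild-type mice, against 60.2% of all genes. Their median log2 ratio was -0.35, more than that of the neuronal set. With DT in OHC-TRECK mice 5 of 14 were lower, against 52.6% of all genes, at a median of 0.06. The summed signal of the 14 genes was 324, 243, 285 and 287 in WT DT(-), WT DT(+), OHC-TRECK DT(-) and OHC-TRECK DT(+). The toxin ratio in OHC-TRECK minus that in wild type was positive for 14 of 14, and negative for 46.2% of all genes. The shift in wild-type mice was thus shared by neuronal and myelin genes, while in OHC-TRECK mice the myelin genes as a list were not lower. Without toxin, 13 of the 14 were lower in OHC-TRECK DT(-) than in WT DT(-), against 53.6% of all genes. The median was -0.13, so for the myelin genes WT DT(-) also lay above the other untreated array. Of 8 genes of oligodendrocytes and central glia, 7 had a probe, with medians of -0.65 and -0.20 and a summed signal of 11.52, 7.56, 8.36 and 7.27, and *Opalin* had none. All 7 were lower in OHC-TRECK DT(-) than in WT DT(-), at a median of -0.44, against 53.6% of all genes. The 6 of 9 central neuron genes with a probe summed to 2.93, 2.51, 2.70 and 1.95, and *Gad2*, *Slc6a5* and *Gabra6* had none.

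Of 8 OHC genes, 3 were lower with DT in wild-type mice, against 60.2% of all genes, and 8 in OHC-TRECK mice, against 52.6%. The last count includes *Ikzf2*, which was nearly unchanged at -0.01. The OHC genes had medians of 0.10 in wild-type mice and -1.76 in OHC-TRECK mice, and their summed signal was 25.4, 23.5, 25.6 and 5.97. Genes of inner hair cells or of all hair cells had medians of 0.19 and -0.68 over 9 genes, with summed signals of 7.44, 8.56, 9.02 and 5.18. Macrophage genes had medians of -0.03 and 0.93 over 10 genes (summed signals of 26.3, 23.2, 21.2 and 32.5). Erythroid and neutrophil genes, 10 each, had medians of 1.79 and 0.72 in wild-type mice. In OHC-TRECK mice the medians were 0.58, over the 9 erythroid genes with a ratio, and 0.73. Summed signals were 64.6, 81.8, 76.4 and 83.2 for erythroid and 38.9, 61.2, 14.0 and 24.1 for neutrophil genes. Supporting cell genes had medians of -0.04 and -0.09 over 10 genes (151.9, 144.8, 152.3 and 170.9), bone genes of 0.16 and -0.07 over 8 (59.6, 66.5, 58.5 and 68.7), and the 6 of 10 skeletal muscle genes with a probe summed to 0.341, 0.268, 0.290 and 0.309. The brightest probes dominate these sums too, above all *Spp1* among bone and *Hba-a1* among erythroid genes. Their toxin ratios in wild-type and OHC-TRECK mice were 0.08 and 0.39 for *Spp1* and 0.28 and 0.11 for *Hba-a1*. The part of these other cells, central nerve tissue included, in the neuronal ratios was not tested.

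**Figure D4:**
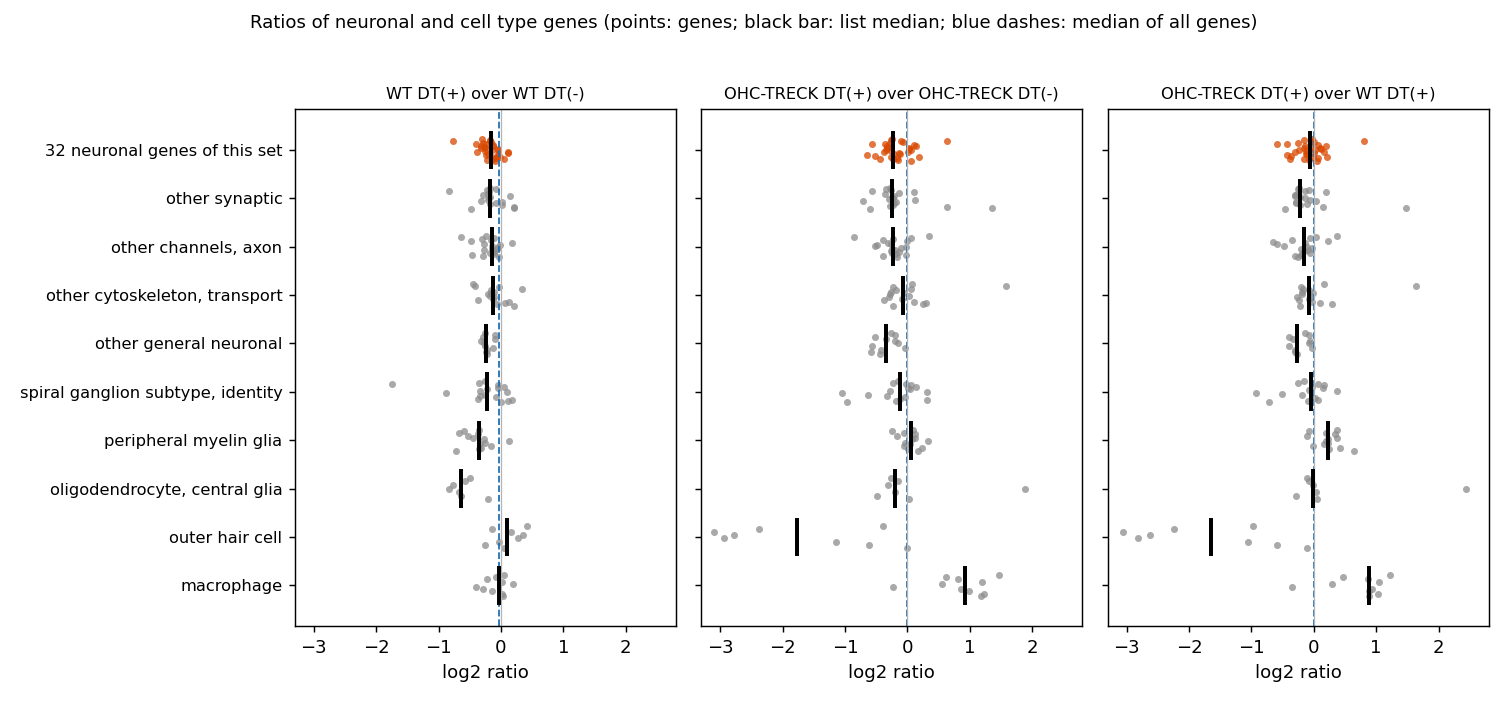
Log2 ratios of genes (points; those of genes not well above background on 1 of the arrays are lower bounds) and list medians (black bars) in WT DT(+) over WT DT(-), OHC-TRECK DT(+) over OHC-TRECK DT(-) and OHC-TRECK DT(+) over WT DT(+), with the median of all genes as a dashed line. The neuronal medians lie left of that line in all panels, the peripheral myelin median in the left panel only, and the OHC and macrophage medians leave it in the panels with OHC-TRECK DT(+).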

How the data were processed

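Cochlear RNA of 4 groups was measured on 4 Agilent 1-colour arrays. The authors deposited spot intensity from Agilent Feature Extraction 11.5.1.1 (mm9 annotation), which is linear and corrected for background but not scaled between arrays, and a table of signal values, in which 1 constant per array divides that intensity. Only the first was used, the table serving as an alternative. Control and outlier spots were left out, spots of a probe were averaged, and intensity was divided by the array's 75th percentile and brought to log2. A probe not well above background in more than 0.5 of its spots was raised to the lowest normalized signal of probes well above background, and its fold is given as at least that size. The members and all gene lists were chosen with earlier results of these data known. Named with full values are members at 1.5-fold in a comparison with DT and the 3 with the smallest range; others were added after their values were seen. With 1 array per group no test was made. The steps were tested on simulated arrays. Python 3.11.15, pandas 2.3.3, limma 3.58.1 (normexp) and R 4.3.3 were used. Exons and UTRs of probes are not given, as no mm9 annotation was used here.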

Additional observations from a re-analysis of the deposited data

Results flagged for a closer look

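Of the members and the genes of all lists, 4 had toxin ratios of opposite direction in the genotypes at 1.5-fold or more each. These differences were not tested, since each group was 1 array. For *Prph* the toxin ratio in OHC-TRECK minus that in wild type was 1.40 on the log2 scale. It was -3.01 for *Gfi1*, a hair cell transcription factor, 2.72 for *Olig2*, a factor of oligodendrocytes, and -2.05 for *Gad1*, which makes the transmitter GABA. *Olig2* measured -4.39, -5.22, -4.67 and -2.79 (log2) in WT DT(-), WT DT(+), OHC-TRECK DT(-) and OHC-TRECK DT(+), while its relative *Olig1* measured -0.39, -1.15, -0.85 and -1.17. The *Olig2* value in WT DT(+) lay near the lowest signal well above background on that array, -5.48. In the same order *Gfi1* measured -0.34, 0.59, 0.71 and -1.37, and *Gad1* -4.11, -3.33, -3.10 and -4.37. Their untreated arrays differed too: OHC-TRECK DT(-) lay above WT DT(-) by 2.07-fold for *Gfi1* and 2.01-fold for *Gad1*.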

How the results depend on the processing

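A set of 10 other settings and 2 added after the data were seen changed background correction, scaling, floor, filter, probe, members or fold. No paired analysis was possible because each group has 1 array. The medians of the members kept their direction under all of them, while *Kcnc1* in OHC-TRECK DT(-) over WT DT(-), a ratio near 0, ran from -0.06 to 0.05. The median of the members ranged from -0.17 to -0.12 in WT DT(+) over WT DT(-), from -0.25 to -0.21 in OHC-TRECK DT(+) over OHC-TRECK DT(-) and from -0.16 to -0.03 in OHC-TRECK DT(+) over WT DT(+). The last was -0.16 after quantile normalization and -0.13 with the mean of all probes. Quantile normalization brought the median difference of the toxin ratios to -0.0933, and median scaling brought OHC-TRECK DT(-) over WT DT(-) to -0.0128. *Syt1* no longer reached 1.5-fold in OHC-TRECK DT(+) over WT DT(+) with normexp, quantile normalization, median scaling or the authors' table (0 members lower), nor did *Prph* in OHC-TRECK mice with normexp (0 higher). In OHC-TRECK DT(+) over OHC-TRECK DT(-), 2 members, *Kcnc1* and *Gria2*, were lower by 1.5-fold without the floor and 0 with the mean of all probes. At 2-fold, 0 members were lower or higher in any comparison.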
